A study of Mus musculus with 32 samples.

Results

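Bone marrow-derived macrophages lacking Trem2 were compared with wild-type (WT) macrophages after low macrophage colony-stimulating factor (M-CSF) and lipopolysaccharide (LPS), a component of the bacterial outer membrane. The 4 libraries labelled T2KO, low M-CSF and LPS and the 4 libraries labelled WT, low M-CSF and LPS, 8 of the 32 libraries of the series, were taken by their sample labels. The T2KO cells came from Trem2-/- mice of the line published by Turnbull and colleagues, and both genotypes carry the strain label C57BL/6. The labels give neither the sex nor the age of the mice, nor the part of the gene that is deleted. All 8 cultures received LPS at 10 ng/ml for 4 h. The labels give the overnight medium as 0.5% or 10% LCCM, name the M-CSF level only as low or normal, and do not join the 2 scales. The other 24 libraries hold the same genotypes in low M-CSF without LPS and in normal M-CSF with and without LPS.

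TREM2 is a surface receptor of macrophages and microglia that binds lipids and lipoproteins and signals through the adaptor DAP12 (gene Tyrobp) and the kinase SYK. M-CSF, through its receptor CSF1R, keeps macrophages alive and lets them divide, and bone marrow macrophages deprived of it slow their metabolism and leave the cell cycle. LPS acts through TLR4 on NF-kB and on interferon regulatory factors, and within hours switches on cytokines, chemokines and interferon-inducible genes. The comparison of genotypes in this medium asks which genes depend on Trem2 when M-CSF is scarce and the cells are stimulated.

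Total counts were 5419465, 4889484, 6248835 and 3068863 in T2KO libraries 1 to 4, against 4547552, 3309701, 3623511 and 3111552 in WT libraries 1 to 4. Levels are given as CPM, read counts scaled to the library total with edgeR's TMM factors. Reads were primed at the 3' end, so a level counts transcript ends and depends little on length, but it was not compared between genes. Differences are log2 fold changes of T2KO over WT with their standard error (SE). Adjusted p is from edgeR's quasi-likelihood F test with Benjamini-Hochberg adjustment over 11244 genes, and a gene passed at 0.05.

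Within each genotype, libraries 1 and 3 were alike and so were libraries 2 and 4. The chi-square per degree of freedom of these pairs was 9.50 and 8.38 in T2KO and 4.35 and 4.03 in WT, and that of all other pairs of the same genotype lay between 20.1 and 34.6. The alike libraries still differed by more than counting noise, and all 8 were kept. That does not show them to be independent, since separate preparations of 1 culture could also differ by more than counting noise. Nothing in the labels ties the 4 libraries of a group to separate mice or cultures. The p-values rest on a spread estimated within the groups of all 32 libraries, which may be partly technical. Where a result was lost with libraries 1 and 3 and libraries 2 and 4 summed, leaving 2 against 2, that is stated as "summed in pairs".

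The macrophage label was checked with Csf1r and Adgre1, and the longer list of macrophage identity genes is given below. Csf1r averaged 842 ± 154 CPM in the T2KO libraries and 842 ± 166 CPM in the WT libraries, and Adgre1, which encodes F4/80, averaged 1036 ± 131 CPM in the T2KO libraries and 904 ± 132 CPM in the WT libraries (SD, n = 4 each). Neither gene passed. Of 12 neutrophil markers tested, 3 rose (1 in pairs) and none fell. The log2 fold change was above 0 for 10 of these 12 markers and below 0 for 2, with a median of 0.77. The summed level of all 18 neutrophil markers in the counts was 644 to 784 CPM in the T2KO libraries, against 411 to 453 CPM in the WT libraries. Elane was at 3.90 CPM in T2KO and 4.42 CPM in WT, and Mpo at 2.39 CPM in T2KO and 1.36 CPM in WT. Of 13 monocyte markers tested 1 rose and 2 fell. The sum of all 15 monocyte markers in the counts was 1991 to 2159 CPM in T2KO, against 1092 to 1351 CPM in WT, carried by F13a1. Of 6 dendritic cell markers 1 rose (Tcf4), and none did in pairs. The log2 fold change was above 0 for 5 of them and below 0 for 1. The summed level of the dendritic cell list was 1703 to 1956 CPM in T2KO, against 1185 to 1267 CPM in WT. Of 19 lymphocyte markers, 10 were at 0 in all 8 libraries. Of the 3 tested, Cd4 rose, at 7.41, 4.33, 7.43 and 5.83 CPM in the T2KO libraries, against 1.66, 2.89, 0.808 and 0.856 CPM in the WT libraries (log2 fold change 2.0 ± 0.563, adjusted p = 0.0108), and Cd79b fell, with 2 counts in the T2KO libraries and 16 in the WT libraries (adjusted p = 0.00921), neither of them in pairs. The summed level of the lymphocyte list was 6.80 to 10.5 CPM in T2KO and 4.97 to 12.0 CPM in WT. None of the 3 stromal and 3 endothelial markers tested passed. In such bulk libraries fewer cells of a type and less RNA per cell cannot be told apart.

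Transcripts of lung epithelium separated the WT libraries, and were looked at after the lowest fold changes had been seen. Scgb1a1, a secretory protein of club cells, had 0, 0.666, 0.512 and 0.971 CPM in T2KO libraries 1 to 4, against 72.2, 0.413, 77.6 and 0.428 CPM in WT libraries 1 to 4. Sftpc, a surfactant protein of alveolar type II cells, had 0, 0, 0 and 0 CPM in T2KO libraries 1 to 4, against 15.9, 0, 23 and 0 CPM in WT libraries 1 to 4. WT libraries 1 and 3 were high, and WT libraries 2 and 4 stood with the T2KO libraries at or near 0. All 13 lung epithelial markers summed to 0 to 2.76 CPM in the 16 T2KO libraries of the series and 31.8 to 140.2 CPM in the 12 WT libraries of the other conditions, so WT libraries 2 and 4 with low M-CSF and LPS differed from all other WT libraries. Of the 7 such markers tested 6 passed as lower, and none did without WT libraries 1 and 3. How far these transcripts, or the source of the libraries, entered the other results was not tested. With WT libraries 1 and 3 left out, an alternative added after the data were seen, 2498 genes passed in place of 2147 (1128 higher and 1370 lower), and with WT libraries 2 and 4 left out 1292 passed (535 higher and 757 lower).

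The targeted gene was the first check of the labels. Trem2 (chr17:48346401-48352276, mm10) had 4.01, 9.0, 6.66 and 4.37 CPM in T2KO libraries 1 to 4, against 289, 328, 312 and 399 CPM in WT libraries 1 to 4. Every T2KO library lay far below every WT library, and the T2KO mean was 1.81% of the WT mean (log2 fold change -5.76 ± 0.25, adjusted p = 1.71e-19). An exact permutation test of log2(CPM + 1) gave two-sided p = 0.0286, the smallest that the 70 arrangements of 4 against 4 allow. The counts are of transcript ends, and whether the deletion removes that end is not given in the labels. In low M-CSF without LPS, T2KO libraries held 115 ± 13.9 CPM of Trem2, against 460.4 ± 70.1 CPM in WT libraries (SD, n = 4 each), so counts were still assigned to the gene in T2KO cells there.

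Among the other receptors of the Trem cluster on chromosome 17, 2 of 6 tested rose and none fell. Treml2 had 13, 25.7, 16.9 and 25.2 CPM in the T2KO libraries, against 3.31, 7.85, 13.7 and 8.13 CPM in the WT libraries (log2 fold change 1.29 ± 0.33, adjusted p = 0.00494), and the groups overlapped. Treml6, listed under the symbol B430306N03Rik, had 30.9, 28.7, 25.9 and 25.2 CPM in the T2KO libraries, against 11.6, 18.6, 9.29 and 13.7 CPM in the WT libraries (log2 fold change 1.06 ± 0.23, adjusted p = 9.62e-04), with no overlap. Trem1, an amplifier of inflammatory signals, differed by 0.67 (adjusted p = 0.33). Treml4 differed by 0.38 (adjusted p = 0.76). Trem3 differed by -0.68 (adjusted p = 0.555). Treml1 had no count in the T2KO libraries and 5 in the WT libraries together (adjusted p = 0.0969), too few to compare.

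Of 24 genes of the DAP12 and SYK pathway that carries TREM2's signal, 3 rose and 2 fell (1 lower in pairs), with a median log2 fold change of 0.10. The 20.8% passing was near the 19.1% over all genes. Tyrobp (DAP12) averaged 898 ± 145 CPM in the T2KO libraries and 1067 ± 127 CPM in the WT libraries (adjusted p = 0.287). Syk averaged 405 ± 45.7 CPM in the T2KO libraries and 468 ± 20.8 CPM in the WT libraries (adjusted p = 0.312). Neither passed, and both overlapped between genotypes. Blnk, an adaptor phosphorylated by SYK, had 115, 123, 108 and 121 CPM in the T2KO libraries, against 262, 214, 211 and 189 CPM in the WT libraries and fell without overlap (log2 fold change -0.91 ± 0.14, adjusted p = 1.09e-05). Vav3, a guanine nucleotide exchange factor, had 174, 75.3, 141 and 80.1 CPM in the T2KO libraries, against 41.7, 45, 42.4 and 32.9 CPM in the WT libraries and rose (log2 fold change 1.54 ± 0.31, adjusted p = 5.77e-04), but did not pass summed in pairs (adjusted p = 0.0527). Ptpn6, which encodes the phosphatase SHP-1, rose likewise (log2 fold change 1.06 ± 0.24, adjusted p = 0.00166) and did not pass summed in pairs (adjusted p = 0.0721).

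Genes near Trem2 were examined since a knockout can carry flanking sequence of the strain it was made in. Within 5 Mb of Trem2, 7 of 69 genes tested rose and 8 fell, 21.7% in all, against 19.1% of all genes tested. Trem2 itself is counted among the 69 and among the 8 that fell. Enpp4, which encodes a surface phosphodiesterase, had 317, 192, 249.7 and 161 CPM in the T2KO libraries, against 54.7, 63.6, 71.1 and 43.2 CPM in the WT libraries (log2 fold change 1.98 ± 0.21, adjusted p = 1.74e-08). Pla2g7, a secreted phospholipase that hydrolyses platelet-activating factor, had 338, 328, 271 and 293 CPM in the T2KO libraries, against 95.8, 86.8, 109 and 74 CPM in the WT libraries (log2 fold change 1.75 ± 0.19, adjusted p = 4.94e-08). In both genes each T2KO library exceeded each WT library. Rftn1, a lipid raft protein, rose (log2 fold change 1.20 ± 0.17, adjusted p = 6.50e-06), and so did the uncharacterised A530064D06Rik (log2 fold change 1.94 ± 0.43, adjusted p = 0.00171). Mrps18a, a protein of the mitochondrial ribosome, fell (log2 fold change -1.18 ± 0.21, adjusted p = 1.49e-04). Dnph1, Trerf1, Bysl, Xpo5, Mrpl14 and Tomm6 also passed as lower and Tbc1d5 as higher, and each of these 7 lost its call without at least 1 of the 8 libraries. All of them but Dnph1 were also lost summed in pairs (adjusted p = 0.0901 to 0.249). Effects of Trem2 and of other linked differences between the lines cannot be told apart here.

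Of 11244 genes, 2147 passed (19.1%), of which 922 were higher (8.2%) and 1225 lower (10.9%) in T2KO. These shares are the ones to set beside the counts of every gene list. The median log2 fold change over all genes was -0.05. More than 2-fold differences were found for 935 genes, 302 higher and 633 lower. Libraries of T2KO and WT did not overlap for 1751 genes (15.6%), and 1346 genes both passed and did not overlap. Which direction held more genes depended on the scaling, with 42.9% of calls higher with TMM and 53.2% (1159 of 2180) with RLE size factors. In DESeq2, which differs in the test as well, 52.0% were higher (1301 of 2501). With the 8 libraries fitted alone, which changes the genes tested and the estimate of spread too, 55.3% were (573 of 1037). Summed in pairs, 485 genes passed, 157 higher and 328 lower, and all 485 were among the 2147.

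**Figure D1:**
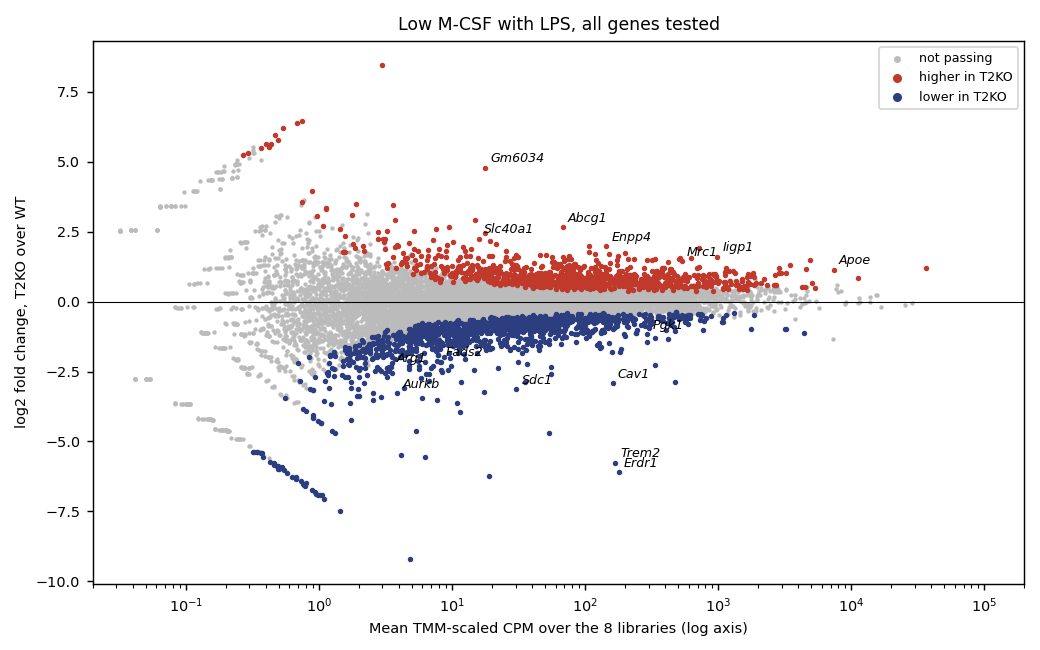
Log2 fold change of T2KO over WT (vertical axis) against mean TMM-scaled CPM over the 8 libraries (horizontal log axis) for the 11244 genes tested in low M-CSF with LPS, with the 922 higher genes in red and the 1225 lower genes in blue. Trem2 and Erdr1 lie lowest among the genes above 100 CPM in WT, at -5.76 and -6.10.

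Among the largest rises, Abcg1, which encodes a cholesterol exporter, had 108, 168, 101 and 90.3 CPM in the T2KO libraries, against 19.2, 13.2, 23.4 and 18.4 CPM in the WT libraries. Abcg1 was 6.29-fold higher in T2KO (log2 fold change 2.65 ± 0.24, adjusted p = 3.33e-10). Lack of overlap between the groups was required for the 15 largest rises, so it is no separate result for them. Slc40a1, which encodes the iron exporter ferroportin, had 23.5, 22.3, 33 and 26.2 CPM in the T2KO libraries, against 3.98, 5.37, 4.04 and 8.98 CPM in the WT libraries (log2 fold change 2.25 ± 0.23, adjusted p = 8.54e-09), without overlap. Cdkn2b, an inhibitor of the cyclin D kinases, had 11.7, 23, 21 and 10.7 CPM in the T2KO libraries, against 6.63, 0.413, 0.808 and 2.14 CPM in the WT libraries (log2 fold change 2.66 ± 0.43, adjusted p = 2.82e-05). Slamf1, a receptor of the SLAM family, rose (log2 fold change 2.17 ± 0.63, adjusted p = 0.0153) but did not pass in DESeq2. Cdt1, the DNA replication licensing factor, had only 7.41, 2.33, 5.12 and 5.34 CPM in the T2KO libraries, against 1.99, 0.413, 1.21 and 0.428 CPM in the WT libraries (log2 fold change 2.23 ± 0.51, adjusted p = 0.00186). The remaining large rises were Camk2b, Zfp933, Zbtb8a, E130102H24Rik, Habp4, Zfp825 and Ttc28, between 2.19 and 3.46. Of these, Zfp933, E130102H24Rik and Zfp825, like Cdt1 and Slamf1, did not pass with WT libraries 2 and 4 left out (adjusted p = 0.0561 to 0.135).

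A930015D03Rik, Gm6034 and H2-T10 rose together within 0.13 Mb of each other on chromosome 17. They lie in the class I histocompatibility region, and H2-T10 is itself a class I gene. A930015D03Rik had 69 counts in the T2KO libraries and none in the WT libraries, at least 19.3-fold higher in T2KO against a floor of 3 counts over the WT group. Gm6034 had 56.2, 23, 36.1 and 20.9 CPM in the T2KO libraries, against 3.98, 0, 0 and 0.428 CPM in the WT libraries (log2 fold change 4.78 ± 0.78, adjusted p = 3.52e-05). H2-T10 had 34.9, 22.7, 30.7 and 31.1 CPM in the T2KO libraries, against 0.994, 3.31, 11.7 and 5.99 CPM in the WT libraries (log2 fold change 2.47 ± 0.37, adjusted p = 9.59e-06). Genes of this region have near-identical copies, and counts could have been split among them.

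Besides Trem2, the deepest falls included a group on the X chromosome. Erdr1 (chrX:170010526-170018797) had 8.03, 6.0, 4.87 and 0.486 CPM in the T2KO libraries, against 383, 421, 337 and 267 CPM in the WT libraries (log2 fold change -6.10 ± 0.38, adjusted p = 8.63e-15). G530011O06Rik (chrX:169975043-169978917) had 1.24, 5.0, 2.56 and 8.25 CPM in the T2KO libraries, against 95.8, 118, 116 and 83 CPM in the WT libraries (log2 fold change -4.71 ± 0.40, adjusted p = 6.33e-11). Mid1 (chrX:169685199-169990798) had 2 counts in the T2KO libraries and 83 in the WT libraries, a WT over T2KO ratio of 49.4 (exact 95% interval 13.3 to 415, counting error only). G530011O06Rik lies within the span of Mid1, and Erdr1 adjoins it near the end of the X chromosome, so their counts may not be separate. Vmn2r115, a vomeronasal receptor of a large family, had 3 counts in T2KO and 130 in WT, a ratio of 51.6 (17.3 to 253). Whether these falls come from the loss of Trem2 or from other sequence differences between the lines cannot be told apart.

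The other large falls had varied known roles. Col4a1, a chain of basement membrane collagen, had 1.54, 3.33, 0.512 and 0 CPM in the T2KO libraries, against 26.5, 17.4, 19.8 and 23.1 CPM in the WT libraries (log2 fold change -3.95 ± 0.58, adjusted p = 7.55e-06). Col4a5, another type IV collagen chain, also fell (log2 fold change -3.44 ± 0.45, adjusted p = 1.26e-06). Cav1, which encodes caveolin-1, had 31.2, 30.3, 50.2 and 37.4 CPM in the T2KO libraries, against 171, 376, 179 and 412 CPM in the WT libraries (log2 fold change -2.92 ± 0.28, adjusted p = 1.58e-09). Sdc1, the heparan sulfate proteoglycan syndecan-1, had 5.87, 8.33, 4.10 and 6.80 CPM in the T2KO libraries, against 44.4, 63.2, 37.2 and 72.3 CPM in the WT libraries (log2 fold change -3.13 ± 0.29, adjusted p = 8.56e-10). No T2KO library reached the lowest WT library in any of these 4 genes, as the choice of the 15 largest falls required. Uchl1, a deubiquitinase, fell (log2 fold change -3.23 ± 0.25, adjusted p = 9.33e-12). Aacs, which activates acetoacetate for lipid synthesis, fell (log2 fold change -3.51 ± 0.48, adjusted p = 2.16e-06). So did Lipn, a lipase (log2 fold change -3.41 ± 0.60, adjusted p = 1.01e-04), and Nptx1, a pentraxin (log2 fold change -3.09 ± 0.47, adjusted p = 1.35e-05). Serpinb6b, 1 of several near-identical serpins, fell (log2 fold change -4.62 ± 0.47, adjusted p = 7.17e-09) and is uncertain.

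**Figure D2:**
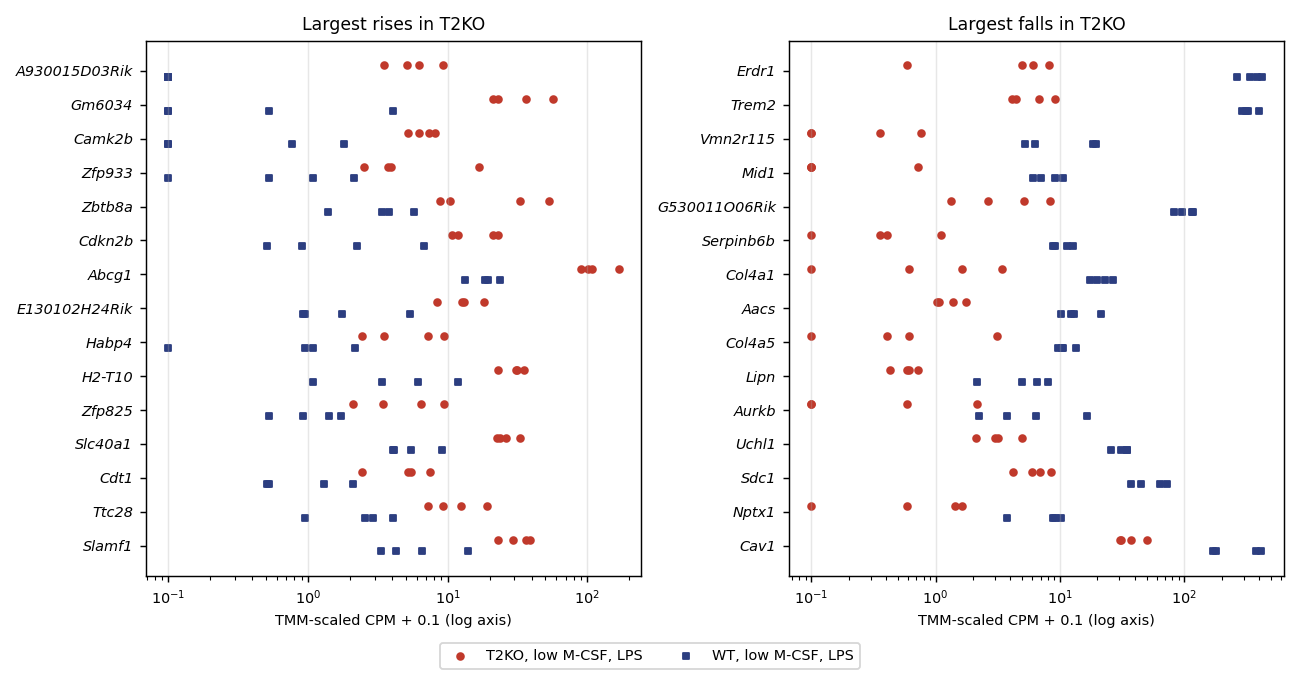
TMM-scaled CPM + 0.1 on log axes in each of the 4 T2KO (red circles) and 4 WT (blue squares) libraries for the 15 largest rises (left) and the 15 largest falls (right) among genes that passed without overlap. Abcg1 sits at 90.3 to 168 CPM in T2KO, against 13.2 to 23.4 CPM in WT, and Sdc1 at 4.10 to 8.33 CPM in T2KO, against 37.2 to 72.3 CPM in WT.

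Genes of cell division were lower. Of 30 genes of mitosis and cytokinesis, 22 fell (73.3%) and none rose, with a median of -1.68 against -0.05 over all genes, and all 30 log2 fold changes were below 0. Summed in pairs 18 fell, with each library left out in turn 19 to 23 fell, and without WT libraries 1 and 3 together 15 fell. Ube2c, which loads ubiquitin for the anaphase-promoting complex, had 9.26, 8.33, 13.8 and 14.6 CPM in the T2KO libraries, against 49.4, 42.2, 59.4 and 53.5 CPM in the WT libraries (log2 fold change -2.16 ± 0.27, adjusted p = 4.00e-07). Birc5, which encodes survivin of the chromosomal passenger complex, had 5.25, 2.67, 7.68 and 1.46 CPM in the T2KO libraries, against 30.5, 19.4, 26.3 and 23.5 CPM in the WT libraries (log2 fold change -2.44 ± 0.29, adjusted p = 2.06e-07). Bub1b, a spindle checkpoint kinase, had 0.926, 2.0, 2.82 and 4.86 CPM in the T2KO libraries, against 20.9, 11.6, 9.29 and 14.5 CPM in the WT libraries (log2 fold change -2.50 ± 0.37, adjusted p = 8.88e-06). In these 3 genes no T2KO library reached the lowest WT library. Aurkb, the mitotic kinase Aurora B and 1 of the 15 deepest falls, had 0, 0, 2.05 and 0.486 CPM in the T2KO libraries, against 6.30, 16.5, 3.64 and 2.14 CPM in the WT libraries (log2 fold change -3.27 ± 0.59, adjusted p = 1.30e-04). Mki67, the proliferation marker Ki-67, averaged 384 ± 53.8 CPM in the T2KO libraries and 399 ± 278 CPM in the WT libraries (SD, n = 4 each) and did not pass.

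The promoters of 3 of the fallen genes are printed because mitotic genes are known to share a CCAAT box and a cell cycle homology element (CHR), motifs that bind NF-Y and the DREAM complex. Ube2c (chr2:164769729-164769928, plus strand), Cdc20 (chr4:118437344-118437543, minus strand) and Ccnb2 (chr9:70421555-70421754, minus strand) are shown as the 200 bases before the RefSeq start of each gene in GRCm38.p6, 5' to 3' on the gene's strand, with CCAAT and TTTGAA on either strand in capitals. Cdc20 activates the anaphase-promoting complex and Ccnb2 is a mitotic cyclin, and both were chosen for display after their values were seen.
Ube2c: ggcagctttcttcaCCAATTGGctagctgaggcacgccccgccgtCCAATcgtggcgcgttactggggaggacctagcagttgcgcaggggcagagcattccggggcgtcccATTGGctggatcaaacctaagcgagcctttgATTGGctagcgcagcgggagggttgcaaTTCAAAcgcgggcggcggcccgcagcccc
Cdc20: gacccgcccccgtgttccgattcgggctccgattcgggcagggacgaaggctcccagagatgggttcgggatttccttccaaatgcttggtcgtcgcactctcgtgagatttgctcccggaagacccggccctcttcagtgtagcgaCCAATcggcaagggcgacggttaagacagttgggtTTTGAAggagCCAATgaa
Ccnb2: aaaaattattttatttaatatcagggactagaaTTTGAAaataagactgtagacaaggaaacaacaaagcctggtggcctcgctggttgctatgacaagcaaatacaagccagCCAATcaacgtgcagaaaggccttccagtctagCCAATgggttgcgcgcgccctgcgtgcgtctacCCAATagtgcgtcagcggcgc

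Cdc20 had 2.16, 1.0, 0.512 and 4.86 CPM in the T2KO libraries, against 7.62, 11.6, 5.25 and 12.4 CPM in the WT libraries (log2 fold change -2.29 ± 0.42, adjusted p = 2.03e-04), and Ccnb2 had 8.95, 10.3, 10.8 and 8.25 CPM in the T2KO libraries, against 26.5, 26.5, 32.3 and 37.2 CPM in the WT libraries (log2 fold change -1.66 ± 0.30, adjusted p = 1.5e-04). Neither overlapped between genotypes. CCAAT was found on either strand in 22 of the 25 promoters matched in the mitosis list (88.0%), against 32.7% of 27025 promoters of all genes. TTTGAA was found in 9 of 25 (36.0%), against 14.4% of all promoters. These are matches of letters in a window and not shown sites.

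DNA replication followed with fewer calls. Of 34 replication and S phase genes, 8 fell and 2 rose, with a median of -0.67, and 28 were below 0. Mcm3, a subunit of the replicative helicase, had 6.79, 5.66, 8.19 and 6.31 CPM in the T2KO libraries, against 32.5, 9.09, 32.3 and 22.2 CPM in the WT libraries (log2 fold change -1.82 ± 0.29, adjusted p = 2.36e-05), without overlap. Mcm7 of the same helicase fell (log2 fold change -2.12 ± 0.36, adjusted p = 5.08e-05), and so did Mcm5 with overlapping libraries (log2 fold change -2.39 ± 0.42, adjusted p = 1.17e-04). The 2 that rose were Cdt1, given above, and Rfc3, a clamp loader subunit, at 55, 116, 36.1 and 115 CPM in the T2KO libraries, against 36.4, 23.6, 48.5 and 28.2 CPM in the WT libraries (log2 fold change 1.22 ± 0.24, adjusted p = 4.97e-04), with overlap. Summed in pairs 5 fell and 2 rose, and with a library left out 7 to 9 fell.

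Among 19 regulators of G1, 5 rose and 1 fell. Ccnd2, a D-type cyclin, had 3167, 2007, 2825 and 1781 CPM in the T2KO libraries, against 1302, 1189, 1180.0 and 1176 CPM in the WT libraries (log2 fold change 1.01 ± 0.16, adjusted p = 3.00e-05), and the groups did not overlap. Cdkn1a, which encodes the kinase inhibitor p21, had 19849, 10569, 17333 and 10190.0 CPM in the T2KO libraries, against 7062, 9619, 6776 and 9014 CPM in the WT libraries (log2 fold change 0.84 ± 0.20, adjusted p = 0.00342), but passed neither summed in pairs (adjusted p = 0.14) nor without WT libraries 1 and 3 (adjusted p = 0.064). Libraries 1 and 3 of T2KO were higher than libraries 2 and 4 for both genes. Cdkn2c, the inhibitor p18, fell (log2 fold change -1.68 ± 0.35, adjusted p = 8.55e-04). Without WT library 2 the members passing numbered 3 in place of 6, and 2 passed summed in pairs. Of 15 p53 targets tested only Cdkn1a rose and none fell.

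Glycolysis was lower. Of 23 genes 12 fell and 1 rose, with a median of -0.68. Summed in pairs 6 fell, and without WT libraries 1 and 3 again 12. Pgam1, phosphoglycerate mutase, had 116, 114, 111 and 129.6 CPM in the T2KO libraries, against 256, 287, 239 and 332 CPM in the WT libraries (log2 fold change -1.24 ± 0.18, adjusted p = 4.45e-06). Slc16a3, the lactate exporter MCT4, had 35.5, 42.7, 40.7 and 47.1 CPM in the T2KO libraries, against 85.1, 100.4, 77.6 and 124 CPM in the WT libraries (log2 fold change -1.22 ± 0.18, adjusted p = 6.03e-06). Pgk1, phosphoglycerate kinase, had 149, 184, 180.0 and 209 CPM in the T2KO libraries, against 341, 479.8, 289 and 498 CPM in the WT libraries (log2 fold change -1.16 ± 0.18, adjusted p = 1.93e-05). Each T2KO library was below each WT library for these 3. The gene that rose was Hk3, a hexokinase of myeloid cells (log2 fold change 0.51 ± 0.17, adjusted p = 0.027), which did not pass summed in pairs (adjusted p = 0.263) or without T2KO library 1 or 3 or WT library 2 or 3. Eno1, an enolase with a near-identical copy, had 4.63, 0, 1.54 and 0 CPM in the T2KO libraries, against 56.3, 0.413, 23.4 and 0.856 CPM in the WT libraries. Its level followed libraries 1 and 3 in both genotypes, and its fall (log2 fold change -3.62 ± 1.08, adjusted p = 0.0159) is uncertain, with adjusted p = 0.113 summed in pairs, 0.159 without WT library 1 and 0.613 without WT libraries 1 and 3. It was added after its values were seen. Of 20 hypoxia-inducible genes 4 fell (1 in pairs; 2 without T2KO library 1 or 3 and 1 without WT library 4), among them Bnip3, a mitophagy receptor (log2 fold change -1.38 ± 0.20, adjusted p = 8.88e-06).

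Genes of mitochondrial energy use passed mostly as lower, and few did so summed in pairs. Of 70 genes of oxidative phosphorylation 23 fell and none rose, the median was -0.38 and 61 were below 0. Summed in pairs none passed, 33 fell without WT libraries 1 and 3, and 3 without WT libraries 2 and 4. The count was 11 without T2KO library 1, 13 without T2KO library 3, 14 without WT library 2 and 11 without WT library 4. Uqcrc1, a core subunit of complex III, had 33.3, 38, 34.6 and 52 CPM in the T2KO libraries, against 56, 67.8, 57.8 and 78.7 CPM in the WT libraries (log2 fold change -0.73 ± 0.18, adjusted p = 0.00408), and did not pass summed in pairs (adjusted p = 0.116). Of 24 genes of pyruvate oxidation and the tricarboxylic acid cycle 5 fell and none rose, with 2 in pairs, 2 without WT library 4 and 9 without WT libraries 1 and 3. The 20.8% passing, all lower, compares with 19.1% of all genes passing and 10.9% passing as lower. Idh3a, a subunit of NAD-dependent isocitrate dehydrogenase, had 4.94, 6.66, 7.68 and 7.28 CPM in the T2KO libraries, against 28.2, 14.9, 19 and 13.3 CPM in the WT libraries (log2 fold change -1.52 ± 0.34, adjusted p = 0.00171; adjusted p = 0.0542 without WT libraries 1 and 3). Pdhb, of pyruvate dehydrogenase, fell (log2 fold change -0.96 ± 0.19, adjusted p = 3.99e-04). Of 18 fatty acid oxidation genes 2 rose and 1 fell (none in pairs), with 1 passing without T2KO library 1 or WT library 2.

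Many genes for making ribosomes and proteins were lower too, fewer of them summed in pairs. Of 28 genes of ribosome biogenesis, 13 fell and 1 rose (median -0.60), and 7 fell summed in pairs. Dkc1, the pseudouridine synthase dyskerin, had 21, 21, 18.7 and 29.1 CPM in the T2KO libraries, against 73.6, 58.3, 64.6 and 68.9 CPM in the WT libraries (log2 fold change -1.58 ± 0.23, adjusted p = 9.01e-06). Nop16, a nucleolar protein, had 11.4, 9.0, 9.73 and 3.40 CPM in the T2KO libraries, against 20.9, 27.7, 23.8 and 27.4 CPM in the WT libraries (log2 fold change -1.52 ± 0.23, adjusted p = 1.24e-05). Both were lower in T2KO without overlap. Of 43 mitochondrial ribosomal proteins 18 fell (median -0.54, 10 without T2KO library 1, 2 summed in pairs), among them Mrpl12 (log2 fold change -1.13 ± 0.23, adjusted p = 5.36e-04). Of 58 cytosolic ribosomal proteins 15 fell (median -0.37), none summed in pairs and 30 without WT libraries 1 and 3. Rps2 fell (log2 fold change -0.95 ± 0.17, adjusted p = 1.59e-04; adjusted p = 0.055 summed in pairs). Without T2KO library 1 the members passing numbered 8, without T2KO library 4 they numbered 27 and without WT library 4 they numbered 9. Cytosolic ribosomal protein genes have many processed copies, and their counts are uncertain.

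**Figure D3:**
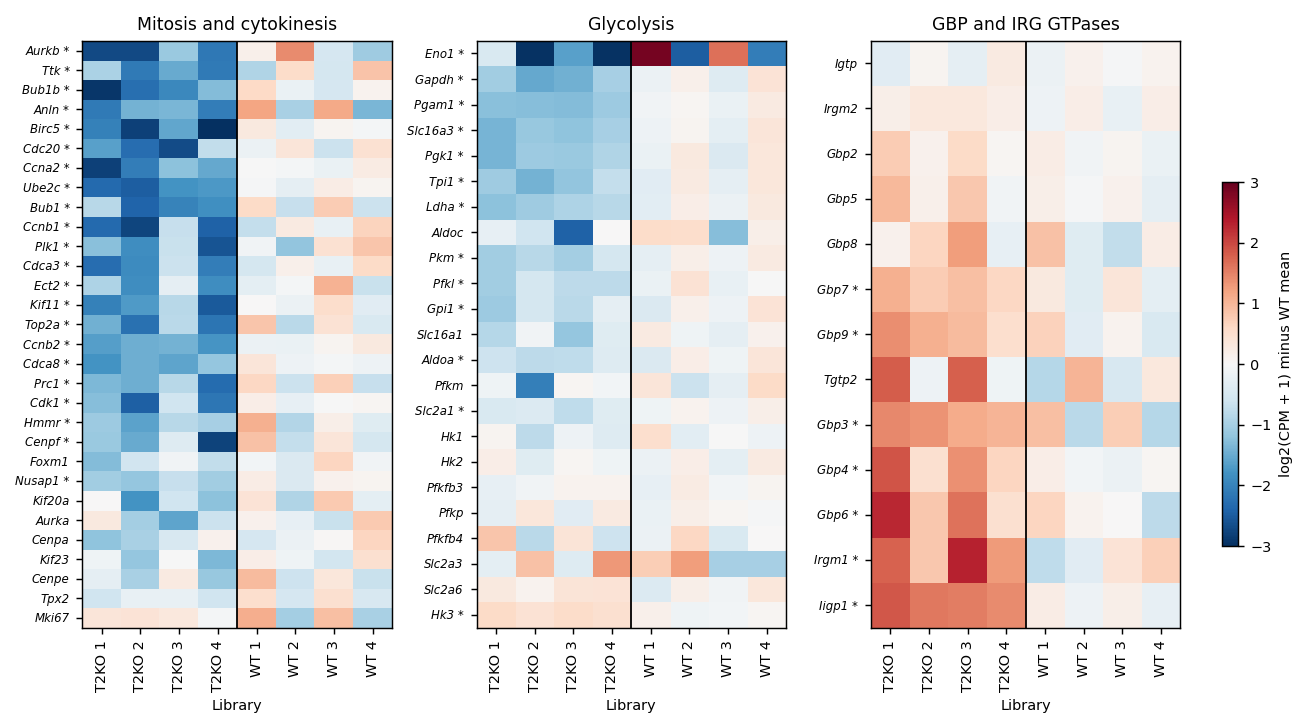
Difference of log2(TMM-scaled CPM + 1) from the WT mean, by colour, for each tested member (rows, an asterisk marks genes that passed) of 3 gene lists in the 4 T2KO and 4 WT libraries (columns). Most rows of mitosis (22 of 30 passing) and glycolysis (12 of 23) are blue in T2KO, and 7 of the 13 GBP and IRG GTPases are red and passed.

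Several genes of sterol and fatty acid synthesis were lower, and several of cholesterol export were higher. Of 24 cholesterol synthesis genes 10 fell and none rose (median -0.68), with 2 in pairs, 12 without WT libraries 1 and 3 and 5 without WT libraries 2 and 4. Sqle, squalene epoxidase, had 27.5, 29.7, 28.4 and 16.5 CPM in the T2KO libraries, against 52, 62.4, 44.4 and 35.1 CPM in the WT libraries (log2 fold change -0.91 ± 0.19, adjusted p = 6.43e-04). Of 14 fatty acid synthesis genes 6 fell, with Fads2, a desaturase, at 4.63, 5.0, 1.02 and 0.971 CPM in the T2KO libraries, against 8.61, 21.1, 9.29 and 14.1 CPM in the WT libraries (log2 fold change -2.15 ± 0.38, adjusted p = 9.78e-05), but the count was 1 in pairs, 2 without T2KO library 1 or T2KO library 3, 3 without T2KO library 4 or WT library 3, and 3 with RLE size factors. Of 17 genes of cholesterol export and targets of the liver X receptors 6 rose and 1 fell, with 2 higher in pairs. Apoe, the apolipoprotein that carries cholesterol out of macrophages, had 11757, 8932, 10340.0 and 9529 CPM in the T2KO libraries, against 4110.0, 4750.5, 4851 and 4599.5 CPM in the WT libraries (log2 fold change 1.15 ± 0.14, adjusted p = 3.04e-07). Abca1, the exporter to lipid-poor apolipoproteins, had 615, 328, 504 and 268 CPM in the T2KO libraries, against 220.3, 255, 231 and 210.1 CPM in the WT libraries (log2 fold change 0.91 ± 0.21, adjusted p = 0.00247), with adjusted p = 0.106 summed in pairs. Plin2, which coats lipid droplets, is also on that list and rose (log2 fold change 0.86 ± 0.17, adjusted p = 5.77e-04; adjusted p = 0.0846 in pairs). The gene that fell was Nr1h3, which encodes the receptor LXR alpha (log2 fold change -0.93 ± 0.30, adjusted p = 0.0267). It passed neither in pairs (adjusted p = 0.124) nor without T2KO library 1, 3 or 4 or WT library 2.

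Amino acid and nucleotide metabolism had smaller counts. Of 24 ATF4 targets 8 fell and 1 rose (2 lower and 1 higher in pairs), and Slc38a2, a glutamine transporter, had 67.9, 72, 70.7 and 56.8 CPM in the T2KO libraries, against 141, 191, 178 and 247 CPM in the WT libraries (log2 fold change -1.49 ± 0.24, adjusted p = 2.42e-05). Of 15 genes of serine and folate metabolism 5 fell and 1 rose, with 1 lower in pairs, and 3 passed without T2KO library 3 or WT library 4. Mthfd2, a folate enzyme, fell (log2 fold change -0.80 ± 0.19, adjusted p = 0.00308), and did not pass summed in pairs (adjusted p = 0.132). Of 30 genes of the pentose phosphate pathway and nucleotide synthesis 6 fell and 1 rose (2 lower in pairs, 4 passing with RLE size factors or without WT library 4). Impdh2, which makes guanine nucleotides, had 9.57, 14, 16.1 and 24.3 CPM in the T2KO libraries, against 31.5, 25.2, 38.8 and 49.6 CPM in the WT libraries (log2 fold change -1.21 ± 0.22, adjusted p = 1.55e-04). Srm, spermidine synthase, had 7.41, 6.33, 2.56 and 2.91 CPM in the T2KO libraries, against 9.28, 21.1, 14.1 and 24.8 CPM in the WT libraries (log2 fold change -1.82 ± 0.33, adjusted p = 1.43e-04). Eif4ebp1, a translation repressor that mTOR phosphorylates, fell (log2 fold change -1.29 ± 0.22, adjusted p = 5.08e-05). None of these genes overlapped between the genotypes.

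Some interferon-inducible genes were higher. Of 38 genes of the type I interferon response 10 rose and none fell (median 0.39, with 33 above 0), against 8.2% of all genes higher, 3 rose summed in pairs, 12 without WT libraries 1 and 3 and 6 without WT libraries 2 and 4. Rsad2, the antiviral enzyme viperin, had 64946, 47344, 53258 and 37790.0 CPM in the T2KO libraries, against 22892, 23287, 22770.0 and 20192 CPM in the WT libraries (log2 fold change 1.19 ± 0.21, adjusted p = 1.32e-04). Cmpk2, its neighbour in the genome, had 11282, 3736, 10141 and 3628 CPM in the T2KO libraries, against 2689, 2319, 2924 and 2279 CPM in the WT libraries (log2 fold change 1.5 ± 0.25, adjusted p = 5.88e-05). Xaf1, a proapoptotic interferon target, had 709, 984, 566 and 746 CPM in the T2KO libraries, against 333, 205, 303 and 215 CPM in the WT libraries (log2 fold change 1.51 ± 0.25, adjusted p = 4.70e-05). All 3 were without overlap, and in Cmpk2 T2KO libraries 1 and 3 were far above T2KO libraries 2 and 4. The inducer Ifnb1 had 11.4, 6.66, 3.58 and 15.1 CPM in the T2KO libraries, against 6.63, 2.89, 3.64 and 8.98 CPM in the WT libraries and did not pass (adjusted p = 0.439).

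The interferon-inducible GTPases, attack vacuoles that hold microbes. Of 13 GBP and IRG genes 7 rose and none fell (median 0.94), 2 summed in pairs, 3 without T2KO library 1, 7 without WT libraries 1 and 3 and 3 without WT libraries 2 and 4. Iigp1 had 1761, 1454, 1399.7 and 1287 CPM in the T2KO libraries, against 561, 432, 543 and 409 CPM in the WT libraries (log2 fold change 1.60 ± 0.29, adjusted p = 1.29e-04). Irgm1 had 541, 279.6, 783 and 386 CPM in the T2KO libraries, against 92.1, 124, 210.1 and 258 CPM in the WT libraries (log2 fold change 1.54 ± 0.36, adjusted p = 0.00277). Gbp7 had 3252, 2652, 2897 and 2399.5 CPM in the T2KO libraries, against 1916, 1216, 2002 and 1272 CPM in the WT libraries (log2 fold change 0.81 ± 0.19, adjusted p = 0.00252), and did not pass summed in pairs (adjusted p = 0.107). None of the 3 overlapped between genotypes. The promoters of Irgm1, Gbp7 and Rsad2 carry the interferon-stimulated response element in the form searched, GAAANNGAAA on either strand, which is in capitals in the 200 bases before each RefSeq start (GRCm38.p6, Irgm1 chr11:48871421-48871620, minus strand, Gbp7 chr3:142530136-142530335, plus strand, Rsad2 chr12:26456453-26456652, minus strand, each 5' to 3' on the gene's strand).
Irgm1: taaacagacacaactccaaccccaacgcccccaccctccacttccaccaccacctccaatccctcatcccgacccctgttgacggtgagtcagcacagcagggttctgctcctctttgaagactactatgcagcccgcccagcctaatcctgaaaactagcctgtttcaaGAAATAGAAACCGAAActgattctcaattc
Gbp7: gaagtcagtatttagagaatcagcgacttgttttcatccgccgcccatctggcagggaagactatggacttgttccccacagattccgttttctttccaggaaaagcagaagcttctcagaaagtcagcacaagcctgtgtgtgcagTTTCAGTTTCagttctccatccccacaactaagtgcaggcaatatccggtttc
Rsad2: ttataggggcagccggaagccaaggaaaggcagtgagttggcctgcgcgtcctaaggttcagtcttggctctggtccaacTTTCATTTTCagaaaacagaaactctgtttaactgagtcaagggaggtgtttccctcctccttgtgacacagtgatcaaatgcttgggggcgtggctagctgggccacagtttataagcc

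That motif was found in 8 of 8 matched promoters of the GTPase list and in 9 of 28 of the interferon list (32.1%), against 2.65% of 27025 promoters of all genes. In Irgm1 it occurs in an overlapping pair. The palindrome CACGTG, searched as the Myc E-box, was in 1 of 22 promoters of ribosome biogenesis genes (4.55%), against 6.0% of all promoters. TCACNCCAC, a sterol response element, was in 1 of 17 promoters of cholesterol synthesis genes (5.88%), against 1.01% of all promoters, while CCAAT was in 15 of those 17 (88.2%). The 5 motifs searched were chosen with the gene lists known, and nothing follows about factors from a motif's presence or absence.

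Cytokine and chemokine genes moved in both directions. Of 19 pro-inflammatory cytokines 4 rose and none fell, none of them summed in pairs and 2 without WT libraries 1 and 3. The 21.1% passing, all higher, compares with 19.1% of all genes passing and 8.2% passing as higher. Il12b, the p40 chain of IL-12 and IL-23, had 5083, 4058, 4046 and 2872 CPM in the T2KO libraries, against 2759.6, 1326, 2362 and 1395 CPM in the WT libraries (log2 fold change 1.03 ± 0.27, adjusted p = 0.00696; adjusted p = 0.109 summed in pairs). Tnf averaged 2338 ± 282 CPM in the T2KO libraries and 2552 ± 451 CPM in the WT libraries (SD, n = 4 each), Il1b averaged 8715 ± 350.2 CPM in the T2KO libraries and 9202 ± 406 CPM in the WT libraries and Il6 averaged 848 ± 292 CPM in the T2KO libraries and 627 ± 79.7 CPM in the WT libraries, and none of the 3 passed (adjusted p = 0.61, 0.872 and 0.249). Of 12 CC chemokines 4 rose and 4 fell (2 higher and 3 lower in pairs and also without WT libraries 1 and 3). Ccl12, a monocyte attractant, had 457, 427, 442 and 540.4 CPM in the T2KO libraries, against 116, 207, 135 and 202 CPM in the WT libraries (log2 fold change 1.5 ± 0.28, adjusted p = 1.96e-04), and Ccl7, of the same chromosome 11 cluster, rose (log2 fold change 0.99 ± 0.19, adjusted p = 3.88e-04). Ccl22, an attractant of regulatory T cells, had 60.2, 48.6, 89.1 and 90.8 CPM in the T2KO libraries, against 199.8, 267, 184 and 344 CPM in the WT libraries (log2 fold change -1.79 ± 0.29, adjusted p = 2.61e-05), and Ccl9 fell (log2 fold change -0.98 ± 0.17, adjusted p = 5.24e-05). Of 9 CXC chemokines 2 rose and 2 fell (1 higher in pairs). Cxcl9, an interferon-gamma-inducible T cell attractant, had 1024, 798, 639.9 and 635 CPM in the T2KO libraries, against 329, 208, 337 and 187 CPM in the WT libraries (log2 fold change 1.55 ± 0.23, adjusted p = 1.14e-05), and Cxcl3, a neutrophil attractant, had 157, 110.3, 208 and 151 CPM in the T2KO libraries, against 425, 358, 424 and 492 CPM in the WT libraries (log2 fold change -1.44 ± 0.34, adjusted p = 0.00296, adjusted p = 0.0567 summed in pairs). No library of either genotype crossed into the other's range for Il12b, Ccl12, Ccl22 or Cxcl9.

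The effectors and brakes around LPS signalling were mixed. Nos2, inducible nitric oxide synthase, had 355, 107, 434 and 134 CPM in the T2KO libraries, against 60.6, 95.1, 84 and 133 CPM in the WT libraries (log2 fold change 1.47 ± 0.32, adjusted p = 0.00108), with overlap and adjusted p = 0.0541 summed in pairs. Arg1, which competes with it for arginine, had 2.47, 0.333, 0.768 and 0.971 CPM in the T2KO libraries, against 5.30, 6.20, 6.87 and 5.13 CPM in the WT libraries (log2 fold change -2.34 ± 0.52, adjusted p = 0.00164), without overlap but with few counts. Of 26 genes of Toll-like receptor signalling 5 rose and none fell (none in pairs, 3 without T2KO library 1 or WT library 2). Of 23 genes of NF-kB and its inhibitors 3 rose and 1 fell (none in pairs, 2 passing without T2KO library 2 or 3 or WT library 4). Of 14 inflammasome genes 3 rose (1 in pairs, 5 without T2KO library 4). The shares passing were 19.2% for Toll-like receptor signalling, 17.4% for NF-kB and 21.4% for the inflammasome. They were near the 19.1% over all genes, where 8.2% passed as higher. Casp4, mouse caspase-11 that senses LPS in the cytosol, had 602, 564, 442 and 523 CPM in the T2KO libraries, against 249, 245, 225 and 201 CPM in the WT libraries (log2 fold change 1.21 ± 0.15, adjusted p = 3.09e-07), and Casp1 rose (log2 fold change 1.20 ± 0.25, adjusted p = 7.40e-04), with adjusted p = 0.0704 summed in pairs. None of 15 class I histocompatibility and immunoproteasome genes passed in edgeR's test, against 2 in DESeq2 and 1 with RLE size factors. H2-T10, which rose as given above, is not among these 15. Of 9 class II presentation genes 2 fell (1 in pairs), and H2-Ab1 had 17.3, 34.3, 26.6 and 29.6 CPM in the T2KO libraries, against 53, 68.2, 45.6 and 55.6 CPM in the WT libraries (log2 fold change -1.05 ± 0.20, adjusted p = 3.44e-04). The costimulatory ligand Cd86 had 77.8, 91.6, 89.9 and 93.7 CPM in the T2KO libraries, against 32.1, 40.5, 23.4 and 43.6 CPM in the WT libraries (log2 fold change 1.34 ± 0.21, adjusted p = 2.71e-05).

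Some immediate-early transcription factors were higher 4 h after LPS. Of 20 genes 7 rose and none fell (median 0.52), with 2 in pairs. Egr1 had 77.2, 80.6, 56.8 and 65.5 CPM in the T2KO libraries, against 13.6, 33.9, 22.6 and 17.5 CPM in the WT libraries (log2 fold change 1.68 ± 0.25, adjusted p = 1.09e-05). Klf4 had 80.3, 94.6, 64.5 and 52 CPM in the T2KO libraries, against 44.1, 33.5, 43.2 and 31.2 CPM in the WT libraries (log2 fold change 0.94 ± 0.20, adjusted p = 0.0012). Both were without overlap and passed summed in pairs. Fos had 212, 84.6, 153 and 60.2 CPM in the T2KO libraries, against 52, 64.9, 51.7 and 53.5 CPM in the WT libraries (log2 fold change 1.21 ± 0.26, adjusted p = 0.00112), where libraries 1 and 3 of T2KO carried the rise and the groups overlapped (adjusted p = 0.0566 summed in pairs).

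Surface and identity genes moved in both directions. Of 25 macrophage identity genes 9 rose and 1 fell, with 1 higher in pairs and 6 passing without WT library 4. The 40.0% passing compares with 19.1% of all genes. Mrc1, the mannose receptor, had 915, 647, 943 and 614 CPM in the T2KO libraries, against 315, 242, 365 and 216 CPM in the WT libraries (log2 fold change 1.46 ± 0.25, adjusted p = 7.30e-05), and the perforin-like Mpeg1 rose (log2 fold change 0.53 ± 0.14, adjusted p = 0.00595), with adjusted p = 0.226 summed in pairs. Of 24 damage- and lipid-associated macrophage genes, a program that needs TREM2 in vivo, 10 fell and 5 rose (5 lower and 1 higher in pairs). Lpl, lipoprotein lipase, had 3404, 2512, 2920.2 and 2245 CPM in the T2KO libraries, against 7369, 5100.5, 7133 and 4708 CPM in the WT libraries (log2 fold change -1.13 ± 0.16, adjusted p = 4.30e-06). Cd9, a tetraspanin of that program, had 99.1, 113, 90.1 and 149 CPM in the T2KO libraries, against 189, 234, 201 and 236 CPM in the WT libraries (log2 fold change -0.94 ± 0.15, adjusted p = 3.63e-05). Itgax, which encodes CD11c, had 2.47, 2.0, 1.28 and 0 CPM in the T2KO libraries, against 10.6, 15.3, 5.25 and 10.3 CPM in the WT libraries (log2 fold change -2.75 ± 0.52, adjusted p = 2.64e-04). In all 3 the highest T2KO library was below the lowest WT library. Apoe, on the same list, rose as given above, so the list did not move as 1 group. Of 17 genes of apoptotic cell uptake 5 rose and 4 fell (1 each in pairs, 5 passing without WT library 4), among them Stab1, a phosphatidylserine receptor that rose (log2 fold change 0.88 ± 0.15, adjusted p = 4.88e-05). Fcgr3, a low-affinity IgG receptor, rose (log2 fold change 1.16 ± 0.15, adjusted p = 1.26e-06).

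Adhesion and cell fusion genes moved in both directions. Of 28 adhesion and matrix genes 9 fell and 4 rose (5 lower in pairs), and Itgb7, an integrin of gut-homing cells, had 2.78, 2.67, 2.82 and 5.34 CPM in the T2KO libraries, against 10.9, 17.8, 8.48 and 27.4 CPM in the WT libraries (log2 fold change -2.29 ± 0.32, adjusted p = 2.97e-06). Dcstamp, needed for fusion into osteoclasts and giant cells, had 0.309, 0, 1.02 and 0 CPM in the T2KO libraries, against 1.66, 4.13, 4.44 and 4.28 CPM in the WT libraries (log2 fold change -3.12 ± 0.75, adjusted p = 0.00304), at low counts. Atp6v0d2, a proton pump subunit with a role in the same fusion, had 5.87, 8.0, 3.33 and 9.71 CPM in the T2KO libraries, against 28.2, 20.7, 15.4 and 10.7 CPM in the WT libraries (log2 fold change -1.54 ± 0.31, adjusted p = 5.77e-04). Neither overlapped, and of 11 osteoclast genes 4 fell and 1 rose (2 lower in pairs, 3 passing without T2KO library 1, WT library 2 or WT library 4). Ccr2, the receptor of monocytes for CCL2, had 40.8, 29.7, 40.7 and 38.4 CPM in the T2KO libraries, against 84.8, 54.1, 91.3 and 87.3 CPM in the WT libraries (log2 fold change -1.09 ± 0.18, adjusted p = 5.72e-05). F13a1, a transglutaminase of monocytes and resident macrophages, had 1049, 1289.9, 1072 and 1147 CPM in the T2KO libraries, against 264, 320.3, 310.3 and 299 CPM in the WT libraries (log2 fold change 1.93 ± 0.16, adjusted p = 5.44e-11), and Csf3r, the receptor of granulocyte colony-stimulating factor, had 232, 228, 215 and 167 CPM in the T2KO libraries, against 84.8, 98.4, 125 and 66.3 CPM in the WT libraries (log2 fold change 1.17 ± 0.21, adjusted p = 1.36e-04). These last 2 are also on the monocyte and neutrophil marker lists whose sums are given above.

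Some antioxidant genes were higher. Of 21 NRF2 targets and antioxidant genes 5 rose and 1 fell (median 0.44), with 2 higher in pairs. Txnrd1, thioredoxin reductase, had 970.2, 1243, 817 and 977 CPM in the T2KO libraries, against 554, 337, 465 and 361 CPM in the WT libraries (log2 fold change 1.22 ± 0.19, adjusted p = 2.38e-05), and Gclm, the modifier subunit of glutathione synthesis, had 624, 571, 525 and 465 CPM in the T2KO libraries, against 283, 193, 225 and 257 CPM in the WT libraries (log2 fold change 1.19 ± 0.17, adjusted p = 3.79e-06). Both were without overlap. Steap3, an endosomal iron reductase, had 2.47, 3.0, 0.512 and 2.43 CPM in the T2KO libraries, against 8.95, 6.61, 9.70 and 2.99 CPM in the WT libraries (log2 fold change -1.83 ± 0.39, adjusted p = 9.81e-04), with overlap and adjusted p = 0.0572 without WT libraries 1 and 3.

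**Figure D4:**
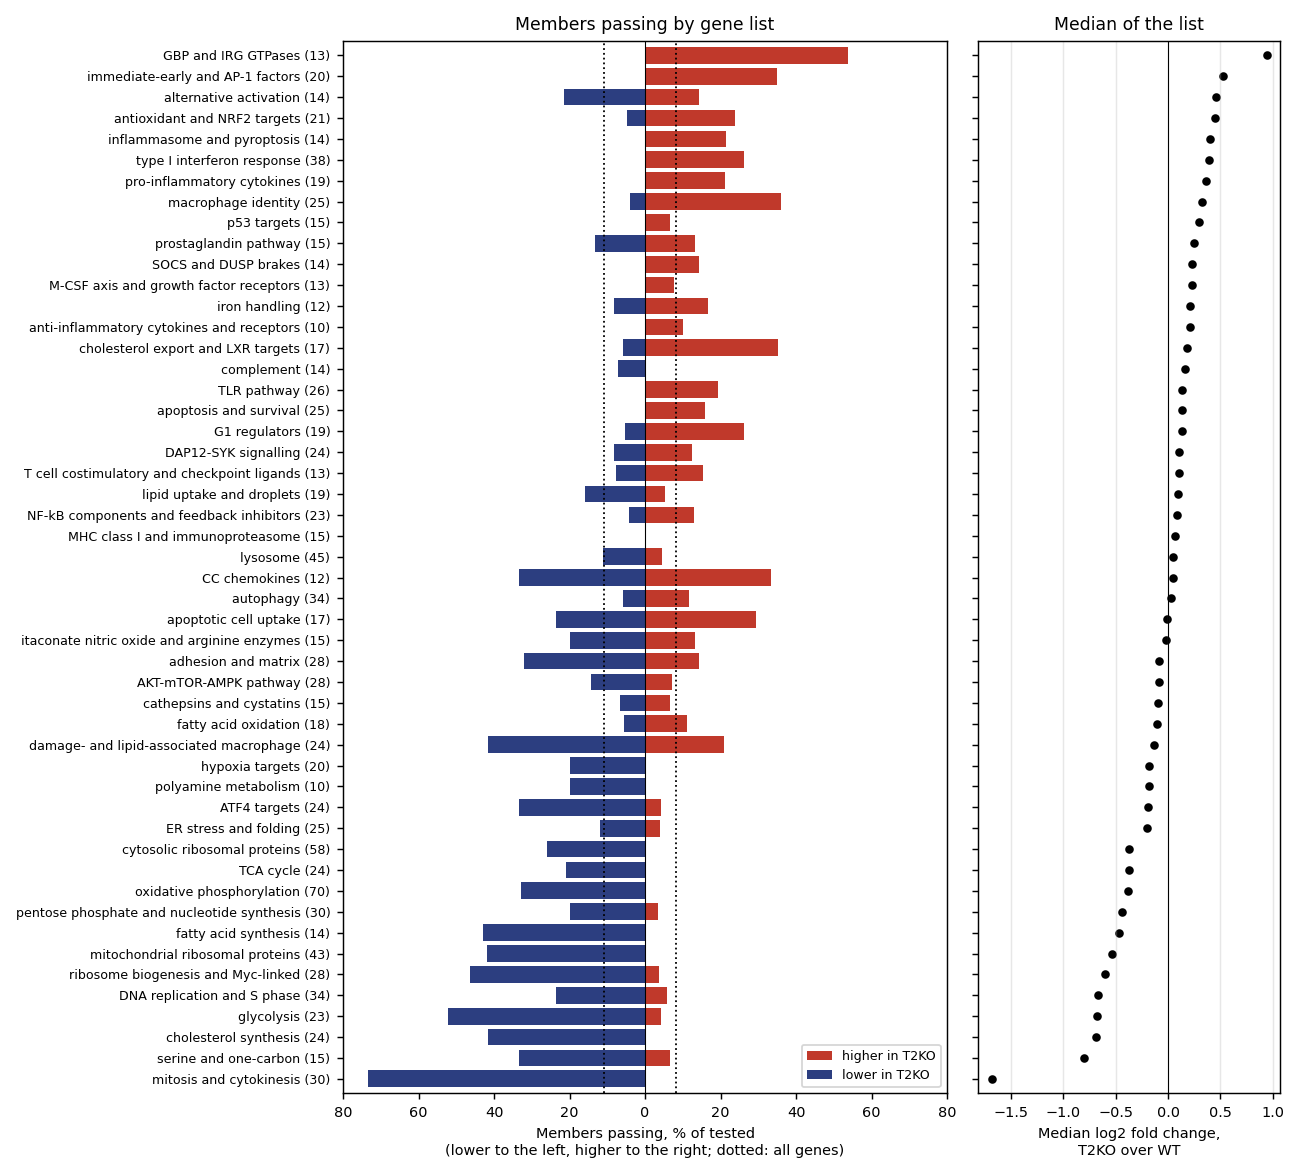
Left, percent of tested members (numbers in brackets) that passed as higher (red, to the right) or lower (blue, to the left) in T2KO for the functional lists with at least 10 genes tested, with dotted lines at 8.2% and 10.9%, the shares over all genes. Right, the median log2 fold change of each list, from -1.68 for mitosis to 0.94 for the GBP and IRG GTPases.

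The difference between genotypes was then compared with the same contrast without LPS, which uses no library in common. In low M-CSF without LPS 1879 genes passed (16.7%), 7.74% of all genes as higher and 8.97% as lower. Of the 2147, 417 also passed there in the same direction (19.4%, and 22.2% of the 1879) and 124 in the opposite one. By sign alone, whether or not they passed there, 1120 of the 2147 (52.2%) went the same way without LPS. The genotype by LPS interaction, which tests whether the difference changed with LPS, passed for 1800 genes (16%), 845 higher (7.52%) and 955 lower (8.49%), for 91 summed in pairs, for 2677 without WT libraries 1 and 3 and for 944 without WT libraries 2 and 4. RLE size factors gave 1039 higher and 671 lower, and the median interaction over all genes was -0.13 with TMM and -0.02 with RLE, so small interactions depend on the scaling.

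Trem2's own difference was -5.76 with LPS and -2.0 without it (interaction -3.76, adjusted p = 9.62e-11). Klf4 differed by 0.94 with LPS and -1.88 without it, an interaction of 2.82 that passed also summed in pairs (adjusted p = 5.07e-04). Fos differed by 1.21 with LPS and -2.03 without it, with an interaction that passed in pairs (adjusted p = 0.00412). Ccnd2 differed by 1.01 with LPS and -0.55 without it, and its interaction did not pass in pairs (adjusted p = 0.0502). Nop16 differed by -1.52 with LPS and 0.19 without it, with an interaction that passed in pairs (adjusted p = 0.0452). Lpl differed by -1.13 with LPS and -2.54 without it, an interaction of 1.41 (adjusted p = 5.17e-05; 0.0733 in pairs).

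By list, mitosis fell in both LPS states, with a median of -1.68 with LPS (22 of 30 lower) and -2.19 without (29 of 30 lower), and 5 members were higher in the interaction. DNA replication had a median of -0.67 with LPS and -1.32 without, with 8 and 26 of 34 lower, and 10 were higher and none lower in the interaction. Oxidative phosphorylation had medians of -0.38 with LPS and 0.12 without, with 15 of 70 members lower and 3 higher in the interaction. Mitochondrial ribosomal proteins had medians of -0.54 with LPS and 0.10 without, with 13 of 43 lower in the interaction, and ribosome biogenesis -0.60 and 0.01, with 8 of 28 lower. The immediate-early genes had medians of 0.52 with LPS and -0.26 without, with 6 of 20 higher and 2 lower in the interaction. Cholesterol synthesis had medians of -0.68 with LPS and -0.65 without, with 10 of 24 lower in each.

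In normal M-CSF with LPS the genotypes differed at 454 genes (4.04%), and without LPS at 209 (1.86%). Of the 2147, 198 passed with LPS in normal M-CSF in the same direction (9.22%, and 43.6% of the 454) and 9 in the opposite one. The genotype by M-CSF interaction with LPS passed for 617 genes (5.49%), 247 higher (2.2%) and 370 lower (3.29%), against 309 and 268 with RLE size factors, and only 1 passed summed in pairs, so the differences between media rest on libraries counted as 4 per group. Without WT libraries 1 and 3 of low M-CSF the count was 1429, and without 2 and 4 it was 363. The count was 355 without T2KO library 1 and 361 without WT library 4 in low M-CSF, and 322, 373 and 381 without WT library 2, T2KO library 3 and WT library 4 in normal M-CSF.

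Enpp4, Erdr1, Slc40a1, F13a1, H2-T10 and Trem2 passed in the same direction in both media. Enpp4 differed by 1.98 in low and 2.06 in normal M-CSF, and Slc40a1 by 2.25 in low and 1.82 in normal M-CSF. Uchl1 differed by -3.23 in low and -0.94 in normal M-CSF (interaction -2.30, adjusted p = 4.04e-05). Glycolysis had medians of -0.68 in low and 0.05 in normal M-CSF, with 9 of 23 lower in the interaction, and mitosis -1.68 and -0.30, with 13 of 30. The interferon list had medians of 0.39 in low M-CSF and 0.35 in normal M-CSF with LPS. Without LPS its medians were 0.43 in low and -0.27 in normal M-CSF. None of its members passed the interaction between media with LPS.

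**Figure D5:**
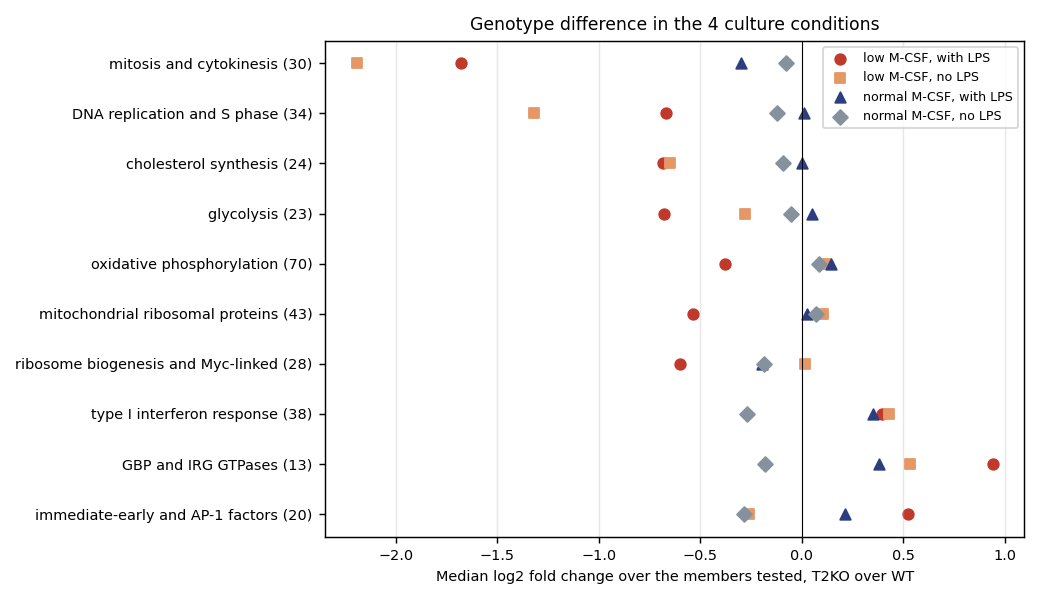
Median log2 fold change of T2KO over WT (horizontal axis) for 10 gene lists (number tested in brackets) in the 4 culture conditions, each from its own 4 and 4 libraries. Mitosis lies at -1.68 and -2.19 in low M-CSF with and without LPS and at -0.30 in normal M-CSF with LPS, and the GBP and IRG GTPases lie furthest right in low M-CSF with LPS.

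The other functional lists moved in both directions or held few calls. In each list of this paragraph the share passing, from 7.14% for complement to 17.6% for autophagy, was below the 19.1% over all genes. Of 34 autophagy genes 4 rose and 2 fell (1 higher in pairs), of 14 complement genes 1 fell (also in pairs), and of 15 cathepsins and cystatins 1 rose and 1 fell (1 lower in pairs). Of 45 lysosomal genes 2 rose and 5 fell (1 lower in pairs), with 4 passing without WT library 4. Of 25 genes of apoptosis and survival 4 rose and none fell (none in pairs), with 2 passing without T2KO library 3, WT library 1 or WT library 4. Among 13 genes of M-CSF, its receptor and other growth factor receptors 1 rose (also in pairs), with 2 passing without T2KO library 2 or 4, and Csf1r itself did not pass.

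Shares passing in the lists of this paragraph ran from 10.0% for anti-inflammatory cytokines to 35.7% for alternative activation, against 19.1% over all genes. Of 14 genes of alternative activation 2 rose and 3 fell (2 each in pairs). Of 15 genes of itaconate, nitric oxide and arginine metabolism 2 rose and 3 fell (1 lower in pairs), with 2 passing without T2KO library 1 and 3 without T2KO library 3 or WT library 2 or 4. Of 28 genes of the AKT, mTOR and AMPK pathway 2 rose and 4 fell (1 lower in pairs), with 2 passing without T2KO library 3 and 3 without T2KO library 1 or 4 or WT library 4. Of 19 genes of lipid uptake and droplets 1 rose and 3 fell (1 lower in pairs). Of 25 genes of endoplasmic reticulum stress and folding 1 rose and 3 fell (none in pairs), with 2 passing without T2KO library 1 or 3 or WT library 1. Of 10 genes of polyamine metabolism 2 fell (1 in pairs, and 1 without T2KO library 2 or 4 or WT library 1). Of 15 prostaglandin genes 2 rose and 2 fell (none in pairs), with 2 passing without T2KO library 1 or WT library 4. Of 12 iron genes 2 rose and 1 fell (1 each in pairs), and of 13 costimulatory and checkpoint ligands 2 rose and 1 fell (1 higher in pairs). Of 14 SOCS and DUSP inhibitors 2 rose (1 in pairs, and 1 without T2KO library 2 or WT library 4). Of 10 anti-inflammatory cytokines and receptors 1 rose (none in pairs or without WT library 1). Of 6 Fc receptors 2 rose (1 in pairs, and 1 without T2KO library 1 or 3 or WT library 1, 3 or 4).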

How the data were processed

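Bone marrow-derived macrophage RNA was captured on oligo-dT beads and copied into cDNA with barcoded oligo-dT primers, pooled and amplified for 12 cycles, per the labels' protocols, which mention no molecular identifiers. The authors deposited 1 table of raw counts per gene for 32 libraries. STAR, HTSeq, DESeq2 and mm10 are listed in the submitters' processing notes, and the versions, the annotation and the use of strand in counting are not given in the sources used here. Of 24885 Entrez identifiers 23965 (96.3%, holding 99.5% of counts) matched a symbol and position in RefSeq GRCm38.p6, and promoter sequences are from RefSeq with that build.

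The counts were fitted with edgeR 4.0.16 in R 4.3.3 with filterByExpr defaults, TMM factors and 1 mean for each of the 8 groups over all 32 libraries, so that the groups share an estimate of spread. Quasi-likelihood F tests gave the difference of genotypes and its interactions with LPS and M-CSF, adjusted by Benjamini-Hochberg over 11244 genes. The code was tested on simulated data. Depth in the compared groups was 3068863 to 6248835 counts, and intervals and floors of 3 counts cover counting error only.

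Named genes had adjusted p under 0.05, groups without overlap and at least 5 CPM in the higher group, and were the 15 largest differences in each direction. Up to 3 passing members of each of 65 gene lists in each direction by smallest p, the Trem family and passing genes starting within 5 Mb of Trem2 were added, and members that did not pass may be named as such. Eno1, Cdc20 and Ccnb2 were named after their values were seen. The comparison, the members and the lists were chosen with earlier results of these data known, and the lung epithelial list after the values were seen. Alternatives were RLE size factors, DESeq2 1.42.0, other filters, fewer libraries, libraries summed in pairs, a replicate block and each library left out.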

Additional observations from a re-analysis of the deposited data

Results flagged for a closer look

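A library standing apart from the other 3 of its group by Dixon's test was found in 12 of 270 tests (135 genes in both genotypes), and chance alone gives about 1 in 20. Among the T2KO libraries these were Col4a5 (3.0 CPM in T2KO library 2, the others 0 to 0.512 CPM), Itgb7 (5.34 CPM in T2KO library 4, the others 2.67 to 2.82 CPM), Mid1 (0.618 CPM in T2KO library 1, the others at 0 CPM), Nr1h3 (9.33 CPM in T2KO library 2, the others 5.83 to 5.89 CPM), Sqle (16.5 CPM in T2KO library 4, the others 27.5 to 29.7 CPM) and Zfp933 (16.7 CPM in T2KO library 1, the others 2.43 to 3.84 CPM). Among the WT libraries these were Ccnd2 (1302 CPM in WT library 1, the others 1176 to 1189 CPM), Dcstamp (1.66 CPM in WT library 1, the others 4.13 to 4.44 CPM), Fos (64.9 CPM in WT library 2, the others 51.7 to 53.5 CPM), Gm6034 (3.98 CPM in WT library 1, the others 0 to 0.428 CPM), Nr1h3 (16.5 CPM in WT library 2, the others 11.6 to 11.7 CPM) and Rsad2 (20192 CPM in WT library 4, the others 22770.0 to 23287 CPM).

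The genotype by LPS interaction in low M-CSF, given as the T2KO minus WT difference with LPS less that without LPS on the log2 scale, passed edgeR's quasi-likelihood test for 50 of these 135 genes. It was positive for Zbtb8a (3.48), Fos (3.24), Zfp933 (3.05), Cdt1 (3.03), Zfp825 (3.02), E130102H24Rik (2.86), Klf4 (2.82), Cdkn2b (2.78) and Habp4 (2.66). Further positive values were found for Vav3 (1.92), Ttc28 (1.69), Abcg1 (1.63), Irgm1 (1.63), Ccnd2 (1.56), Casp1 (1.56), Casp4 (1.51), Ptpn6 (1.5) and Lpl (1.41). Positive values were also found for Txnrd1 (1.39), Rfc3 (1.36), Xaf1 (1.35), Mrc1 (1.34), Cmpk2 (1.28), Egr1 (1.16), Slc40a1 (0.91), Fcgr3 (0.84) and Mthfd2 (0.81). It was negative for Treml1 (-7.77, fitted on almost no counts), Trem2 (-3.76), Vmn2r115 (-2.96), Ccl22 (-2.35), Srm (-2.18), Idh3a (-2.05), Slc38a2 (-1.85), Eif4ebp1 (-1.84) and Nop16 (-1.71). Further negative values were found for Bysl (-1.64), Il1b (-1.59), Mrpl12 (-1.34), Blnk (-1.30), Dkc1 (-1.26), Mrps18a (-1.14), Pdhb (-1.10), Pgam1 (-1.08) and Ndufa6 (-1.08). Negative values were also found for Uqcrc1 (-0.99), Bnip3 (-0.93), Impdh2 (-0.88), Xpo5 (-0.86) and Pgk1 (-0.81). Summed in pairs, the interaction passed for Cdkn2b, Cdt1, Eif4ebp1, Fos, Klf4, Nop16, Trem2, Zbtb8a and Zfp825.

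The genotype by M-CSF interaction with LPS, given as the T2KO minus WT difference in low less that in normal M-CSF on the log2 scale, passed for 40 of the 135 genes. It was above 0 for Zfp933 (3.36), Cdt1 (2.07), Abcg1 (1.81), Vav3 (1.69), Irgm1 (1.65), Ptpn6 (1.48), Abca1 (1.35), Txnrd1 (1.17) and Apoe (0.86). It was below 0 for Aurkb (-3.08), Serpinb6b (-3.04), Lipn (-2.74), Fads2 (-2.47), Mcm5 (-2.33), Uchl1 (-2.30), Birc5 (-2.28), Mcm7 (-1.98) and Cdc20 (-1.98). Values below 0 were also found for Ube2c (-1.82), Bub1b (-1.80), Eif4ebp1 (-1.67), Slc38a2 (-1.63), Srm (-1.60), Mcm3 (-1.59), Ccl22 (-1.46), Sdc1 (-1.43) and Cdkn2c (-1.37). Next came Ccnb2 (-1.26), Pgam1 (-1.26), Mthfd2 (-1.22), Pgk1 (-1.16), Mrps18a (-1.16), Blnk (-1.08), Slc16a3 (-1.07), Impdh2 (-1.02) and Pdhb (-0.99). The remaining genes below 0 were Bnip3 (-0.91), Ccl9 (-0.86), Cd9 (-0.84) and Ndufa6 (-0.74). None of these interactions passed summed in pairs, where the lowest adjusted p was 0.0714.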

How the results depend on the processing

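The genotype difference (2147 genes) passed for 485 genes with libraries summed in pairs, for 1037 of 8583 with the 8 libraries fitted alone, for 1292 with WT libraries 2 and 4 left out and for 1547 to 2190 with 1 library left out. The genotype by LPS interaction (1800) passed for 91 in pairs, 944 with WT libraries 2 and 4 left out and 1225 to 2006 with 1 library left out. The genotype by M-CSF interaction (617) passed for 1 in pairs, 945 in DESeq2, 1429 with WT libraries 1 and 3 left out, 363 with WT libraries 2 and 4 left out and 322 to 801 with 1 library left out. Filters, RLE size factors and the 16 LPS libraries alone kept the genotype count within 1.5 times. Trem2 stayed lower and passed under every alternative run. Of the named values, 5 changed sign or became 0, none past the threshold: Trem3 (-1.23 to 0.0202 with 1 library left out, above 0 without WT library 1), Tnf (0.10 without WT libraries 2 and 4) and, without WT libraries 1 and 3, Eno1 (1.35), Scgb1a1 (0.22) and Sftpc (0). Of 125 named genes that passed, 25 were lost in pairs and 10 without some single library. The causes were not tested.

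Same-numbered T2KO and WT libraries deviated together in 2 of 4 pairs (correlations 0.26, -0.14, -0.002 and 0.38). Between differently numbered libraries the correlations ran from -0.35 to 0.28, so the numbers were not taken to pair the samples. For every T2KO library the signs followed the split of WT libraries 1 and 3 from 2 and 4. T2KO libraries 1 and 2 deviated with WT libraries 1 and 3, and T2KO libraries 3 and 4 with WT libraries 2 and 4. For T2KO library 3 the correlations were weak, from -0.10 to 0.08. With the replicate block 2073, 1663 and 514 genes passed in these 3 comparisons. Genes under about 5 CPM rest on few counts, and differences there may not be detectable at this depth.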
